A study of Sus scrofa with 8 samples.

Results

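Genes that govern whether a cell burns glucose or fatty acids, 10 in all, were followed in pig limb muscle with and without the factors that build skeletal muscle. They are the pyruvate dehydrogenase kinases PDK1, PDK2, PDK3 and PDK4, the glucose transporters SLC2A1 and SLC2A4, the carnitine palmitoyltransferases CPT1A and CPT1B, the fatty acid binding protein gene FABP3 and the coactivator gene PPARGC1A. They were picked by gene symbol, and each symbol matched 1 of the 22516 gene identifiers in the deposited table, so all 10 of 10 were measured. The tissue came from pig embryos at embryonic days 62 (E62) and 41 (E41) and was profiled by bulk RNA sequencing. Embryos with a knockout of MYF5, MYOD1 and MYF6 (KO) were compared with wild-type embryos (WT), giving 4 groups of 2 libraries each: KO E62, WT E62, KO E41 and WT E41. Sample titles call the 2 libraries of a group biological replicates, but no label says how the animals were chosen or whether littermates were used. The p-values therefore rest on the scatter of these libraries alone, part of which may be technical. The labels disagree in places: the series title has knockdown for the knockout of the sample titles, and the later stage is E60 in the growth protocol but E62 in the sample titles. Each group's library names share a number that no other group has, and the WT E41 names alone carry LHL in place of RHL. Anything that number or code stands for cannot be told apart from the group it belongs to. How the knockout was made is not given in the labels.

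Pyruvate made from glucose enters the mitochondrial tricarboxylic acid cycle through the pyruvate dehydrogenase complex, and the PDK kinases switch that complex off by phosphorylation. Long-chain fatty acids enter the mitochondrion through CPT1, the outer membrane step that controls the rate of their oxidation, with CPT1A as the widely expressed form and CPT1B as the form of muscle. SLC2A1 encodes GLUT1, a transporter for basal glucose uptake, and SLC2A4 encodes GLUT4, which insulin and contraction bring to the surface of muscle and fat cells. FABP3 carries fatty acids in the cytosol of heart and skeletal muscle, and PPARGC1A drives mitochondrial and oxidative genes.

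Library totals ranged from 23402052 to 60539245 estimated counts. MYF5 and MYF6 had 0 counts in all 4 KO libraries, and MYOD1 kept 20 to 88 counts there against 1503 to 5715 in WT libraries. The label of limb muscle held for WT and not for KO by its markers. The summed level of 55 skeletal muscle markers, in CPM (counts scaled by TMM to a common library total, then to the usual per-megaread unit), was 197 to 202 in KO E62 against 88010 to 103800 in WT E62, and 193 to 203 in KO E41 against 44240 to 44460 in WT E41. Of the 55, CSRP3 alone had 0 counts in both KO E62 libraries and CHRNG alone in both KO E41 libraries. In each KO library 49 to 54 of the 55 had counts. The 10 fibroblast markers summed to 86520 to 92750 CPM in KO E62 against 26540 to 46680 in WT E62, and to 50340 to 54420 in KO E41 against 23160 to 38800 in WT E41. In a principal component analysis of 500 genes, KO E62 replicate 2 stood at 39.9 and KO E62 replicate 1 at 10.3 on the component after the first, while replicates of the other groups lay closer together. Skin markers, 8 in all, summed to 1163 CPM in KO E62 replicate 1 and 52.7 CPM in KO E62 replicate 2. With either of these libraries left out, the log2 fold changes of the 10 genes in KO against WT at E62 kept their sign.

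At each stage 7 of the 10 genes differed between KO and WT in edgeR's quasi-likelihood test at an adjusted p under 0.05, 2 of them higher and 5 lower in KO. PDK4 and CPT1A were higher in KO at both stages, and SLC2A4, PPARGC1A and FABP3 were lower in KO at both stages. Among all 17020 genes tested, 47.2% were called at E62 (21.0% higher and 26.2% lower) and 39.2% at E41 (18.5% higher and 20.8% lower), so a call by itself was common. The median log2 fold change of the 10 genes was -0.46 at E62 and -0.56 at E41, against 0.06 and 0.09 over all genes. Scaled by library size alone, the all-gene median was 0.36 at E62 and 0.38 at E41, and 69.4% and 73.6% of all called genes were higher in KO, against 44.5% and 47.1% with TMM. On that scaling 8 of the 10 were called at E62 and 9 at E41. Because the tissue is bulk, fewer cells of a type and less RNA per cell cannot be told apart in any of these values.

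**Figure D1:**
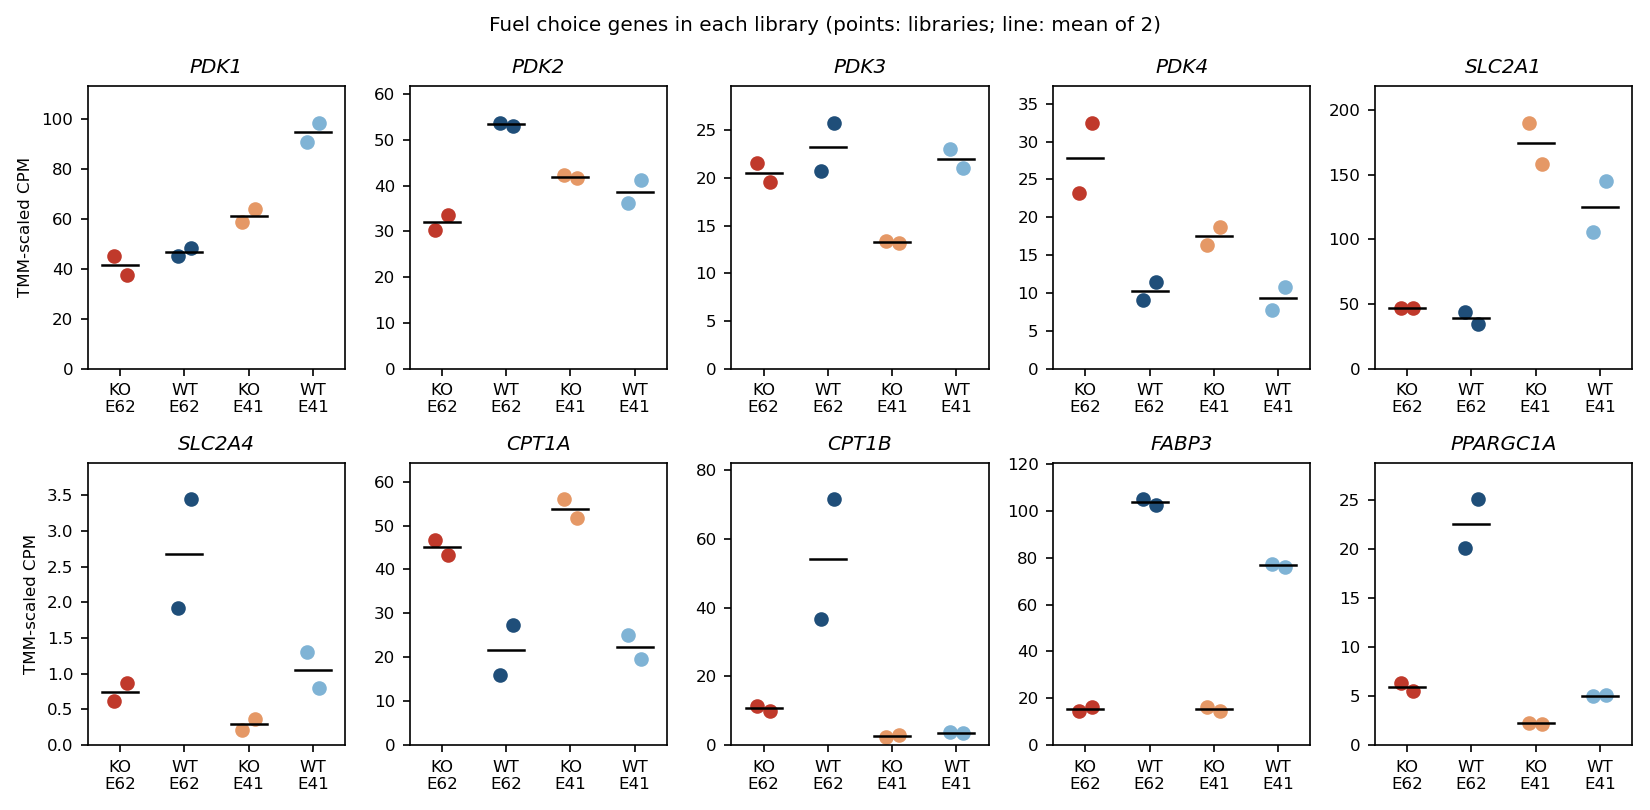
TMM-scaled CPM (vertical axes, each starting at 0) of each gene in the 8 libraries, with groups KO E62, WT E62, KO E41 and WT E41 along the horizontal axes; points are libraries and lines are means of 2. PDK4 and CPT1A sit higher in both KO groups than in both WT groups, FABP3 sits at 14.4 to 16.2 CPM in the KO libraries against 76.2 to 105 in the WT libraries, and CPT1B is highest in WT E62.

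Of the kinases, PDK4 was the member that was higher in KO at both stages. PDK4 (ENSSSCG00000015334, chromosome 9, bases 75246956 to 75260134) is the isoform that starvation and fatty acids induce in muscle. It had 23.2 and 32.5 CPM in KO E62 against 9.02 and 11.5 CPM in WT E62, and 16.3 and 18.7 CPM in KO E41 against 7.78 and 10.8 CPM in WT E41. Every KO library exceeded every WT library. The log2 fold change was 1.44 ± 0.23 at E62 (SE, n = 2 libraries per group here and below; edgeR adjusted p = 0.00162) and 0.91 ± 0.23 at E41 (edgeR adjusted p = 0.0165). At E41 the edgeR adjusted p was 0.084 without KO E41 replicate 2 and 0.080 without WT E41 replicate 1. Fibroblast markers, summed above, moved with it, while the 11 adipocyte markers split, with 5 called higher and 3 lower in KO at E62, and 2 higher and 1 lower at E41. At E62 ADIPOQ had 387 and 1075 counts in KO against 4 and 11 in WT, and PLIN1 had 138 and 343 counts in KO against 4 and 4 in WT. CEBPA had 2306 and 1801 counts in KO E62 against 189 and 279 in WT E62. PLIN4 went the other way, with 8 and 43 counts in KO E62 against 387 and 837 in WT E62. So did GPD1, with 222 and 215 counts in KO E62 against 1431 and 1008 in WT E62. The 11 together summed to 172 and 256 CPM in KO E62 against 200 and 228 CPM in WT E62, and to 64.5 and 67.6 CPM in KO E41 against 60.9 and 68.6 CPM in WT E41. LPL alone gave 101 and 116 CPM of the WT E62 sums, against 20.2 and 27.95 CPM of the KO E62 sums. At E41 ADIPOQ had 1 and 7 counts in KO and 0 and 2 in WT. The part of either cell type in the PDK4 values was not tested.

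PDK1 and PDK3 were lower in KO at E41, and neither passed the test at E62. PDK1 (ENSSSCG00000015958, chromosome 15, bases 78608394 to 78650958), an isoform that low oxygen induces through HIF1, had 58.6 and 63.7 CPM in KO E41 against 90.8 and 98.4 CPM in WT E41. Its log2 fold change there was -0.63 ± 0.11 (edgeR adjusted p = 0.0038). In E62 libraries it had 45.1 and 37.4 CPM in KO against 45.2 and 48.3 CPM in WT, with the KO E62 libraries just under the WT E62 ones and a log2 fold change of -0.18 ± 0.11 (edgeR adjusted p = 0.221). PDK3 (ENSSSCG00000012181, chromosome X, bases 20486205 to 20598492) had 13.3 and 13.2 CPM in KO E41 against 23.0 and 21.0 CPM in WT E41, a log2 fold change of -0.73 ± 0.13 (edgeR adjusted p = 0.00424). Its E62 libraries overlapped, at 21.5 and 19.6 CPM in KO against 20.8 and 25.8 CPM in WT, with a log2 fold change of -0.18 ± 0.13 (edgeR adjusted p = 0.291). With library size alone, both E62 differences took the opposite sign, at 0.13 for each gene, and stayed short of the threshold.

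PDK2 (ENSSSCG00000027198, chromosome 12, bases 26274562 to 26295787), the kinase found in most tissues, was lower in KO at E62. It had 30.4 and 33.6 CPM in KO E62 against 53.7 and 53.1 CPM in WT E62, and 42.4 and 41.6 CPM in KO E41 against 36.2 and 41.2 CPM in WT E41. The E62 groups were far apart relative to their spread, while at E41 the KO libraries lay just above the WT ones. The log2 fold change was -0.74 ± 0.10 at E62 (edgeR adjusted p = 0.000658) and 0.12 ± 0.10 at E41 (edgeR adjusted p = 0.373). With library size alone the E41 value was 0.41 and passed the threshold (edgeR adjusted p = 0.016).

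The make-up of the kinase counts differed more between groups than their sum did. Summed over the 4 genes, the level was 120 and 123 CPM in KO E62 against 129 and 139 CPM in WT E62, and 131 and 137 CPM in KO E41 against 158 and 171 CPM in WT E41. PDK4 gave 19.3% and 26.4% of these counts in KO E62 against 7.01% and 8.28% in WT E62, and 12.5% and 13.6% in KO E41 against 4.93% and 6.30% in WT E41. PDK2 gave 25.3% and 27.3% in KO E62 against 41.7% and 38.3% in WT E62, and 32.5% and 30.3% in KO E41 against 22.9% and 24.0% in WT E41. PDK1 gave 37.5% and 30.4% in KO E62 against 35.1% and 34.8% in WT E62, and 44.8% and 46.5% in KO E41 against 57.6% and 57.4% in WT E41. These shares are of counts not corrected for transcript length, so only their change between groups can be read, not the order of the genes.

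**Figure D2:**
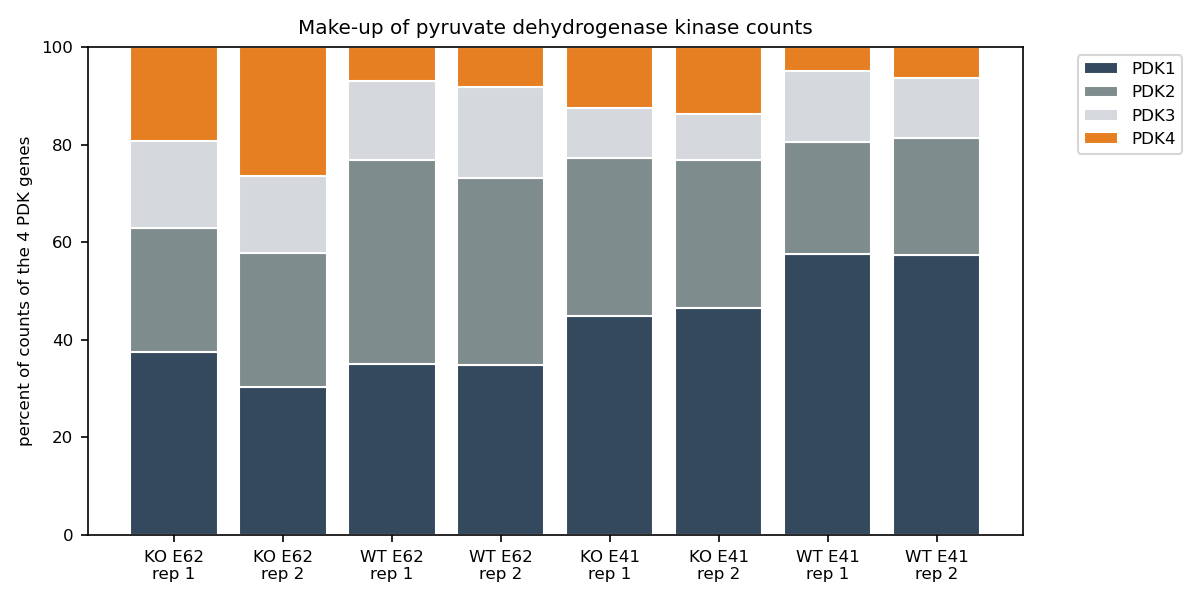
Stacked bars give the percent of the summed counts of the 4 PDK genes (vertical axis, 0 to 100) held by each gene in each of the 8 libraries along the horizontal axis. The top segment, PDK4, spans 12.5% to 26.4% in KO libraries and 4.93% to 8.28% in WT libraries.

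The glucose transporters did not move together. SLC2A4 (ENSSSCG00000023915, chromosome 12, bases 52628746 to 52634965) was near the floor of detection everywhere, with 10 to 117 counts per library. It had 0.620 and 0.868 CPM in KO E62 against 1.92 and 3.45 CPM in WT E62, and 0.215 and 0.369 CPM in KO E41 against 1.30 and 0.796 CPM in WT E41. Each KO group lay under its WT group without overlap. Its log2 fold change was -1.85 ± 0.49 at E62 (edgeR adjusted p = 0.0162) and -1.83 ± 0.54 at E41 (edgeR adjusted p = 0.0293). The E62 call was lost without KO E62 replicate 1 (edgeR adjusted p = 0.07) and WT E62 replicate 2 (0.11), and the E41 call without KO E41 replicate 1 (0.16), KO E41 replicate 2 (0.064) and WT E41 replicate 1 (0.13) and with limma-voom (0.069).

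SLC2A1 (ENSSSCG00000059879, chromosome 6, bases 168535398 to 168561170) had 47.2 and 46.7 CPM in KO E62 against 43.5 and 34.8 CPM in WT E62, and 190 and 158 CPM in KO E41 against 106 and 145 CPM in WT E41. The KO libraries lay above the WT libraries of their stage, by less than the threshold of the test required: the log2 fold change was 0.26 ± 0.18 at E62 (edgeR adjusted p = 0.252) and 0.47 ± 0.18 at E41 (edgeR adjusted p = 0.0665). At E41 the difference passed with DESeq2 (adjusted p = 0.029), with a filter of 1 CPM (0.045), with library size alone (0.013) and without WT E41 replicate 2 (0.026), WT E62 replicate 1 (0.045) or WT E62 replicate 2 (0.046). At E62 it passed with library size alone (0.038). Red blood cells also carry GLUT1, and 9 of their markers summed to 4462 and 8243 CPM in KO E62 against 4262 and 1202 CPM in WT E62, and to 4565 and 9506 CPM in KO E41 against 3833 and 2721 CPM in WT E41. The 8 skin markers summed to 1163 and 52.7 CPM in KO E62 against 32.6 and 36.9 CPM in WT E62. At E41 the skin markers summed to 1629 and 929 CPM in KO against 782 and 1285 CPM in WT. The part of red blood cells or skin in the SLC2A1 values was not tested.

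The carnitine palmitoyltransferase pair split by isoform. CPT1A (ENSSSCG00000012880, chromosome 2, bases 4250642 to 4293914) was about double in KO, with 46.7 and 43.4 CPM in KO E62 against 16 and 27.3 CPM in WT E62, and 56.0 and 51.7 CPM in KO E41 against 25.1 and 19.6 CPM in WT E41. All 4 KO libraries exceeded all 4 WT libraries. The log2 fold change was 1.06 ± 0.24 at E62 (edgeR adjusted p = 0.0108) and 1.27 ± 0.24 at E41 (edgeR adjusted p = 0.00683), and both calls held in all 17 alternatives run. Fibroblast markers moved with it, with 9 of 10 called higher in KO at E62 and 6 of 10 at E41. Macrophage markers did so at E62, with 10 of 10 called higher. At E41 2 of the 10 macrophage markers were higher and 1 lower, against 18.5% and 20.8% of all genes tested. Of 10 endothelium markers, 5 were called higher in KO at E62 and 4 at E41, and 0 lower at either stage. The macrophage markers summed to 743 to 780 CPM in KO E62 against 168 to 194 CPM in WT E62. At E41 their sums overlapped, at 253 to 257 CPM in KO against 124 to 253 CPM in WT. The part of any of these cell types in the CPT1A values was not tested. CPT1B (ENSSSCG00000022364, chromosome 5, bases 155552 to 163536) was lower in KO at E62, with 11.4 and 9.96 CPM in KO E62 against 36.8 and 71.5 CPM in WT E62. The WT E62 libraries differed from each other by 1.94 times, yet the lower one still exceeded both KO E62 libraries. At E41 it had 2.30 and 2.80 CPM in KO against 3.72 and 3.45 CPM in WT, a small difference at a low level. The log2 fold change was -2.34 ± 0.30 at E62 (edgeR adjusted p = 0.000848) and -0.49 ± 0.33 at E41 (edgeR adjusted p = 0.284).

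FABP3 and PPARGC1A were lower in KO at both stages. FABP3 (ENSSSCG00000036883, chromosome 6, bases 87943003 to 87950708) had 14.4 and 16.2 CPM in KO E62 against 105 and 102 CPM in WT E62, and 16 and 14.4 CPM in KO E41 against 77.4 and 76.2 CPM in WT E41. The KO libraries lay far below the WT libraries at both stages, and replicates lay close together. The log2 fold change was -2.76 ± 0.10 at E62 (edgeR adjusted p = 7.77e-07) and -2.34 ± 0.10 at E41 (edgeR adjusted p = 3.14e-06). PPARGC1A (ENSSSCG00000029275, chromosome 8, bases 17841844 to 18527953) had 6.34 and 5.51 CPM in KO E62 against 20.2 and 25.1 CPM in WT E62, and 2.28 and 2.19 CPM in KO E41 against 5.02 and 5.09 CPM in WT E41. Its KO E62 libraries stood close to the WT E41 ones. The log2 fold change was -1.93 ± 0.17 at E62 (edgeR adjusted p = 9.89e-05) and -1.18 ± 0.18 at E41 (edgeR adjusted p = 0.00202). Of the 55 muscle markers, 55 were lower in KO at E62 and 54 at E41, and their part in the values of CPT1B, SLC2A4, FABP3 and PPARGC1A was not tested. Unlike those markers, whose median log2 fold change was -10.23 at E62 and -9.10 at E41, both genes kept a measurable level in KO.

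**Figure D3:**
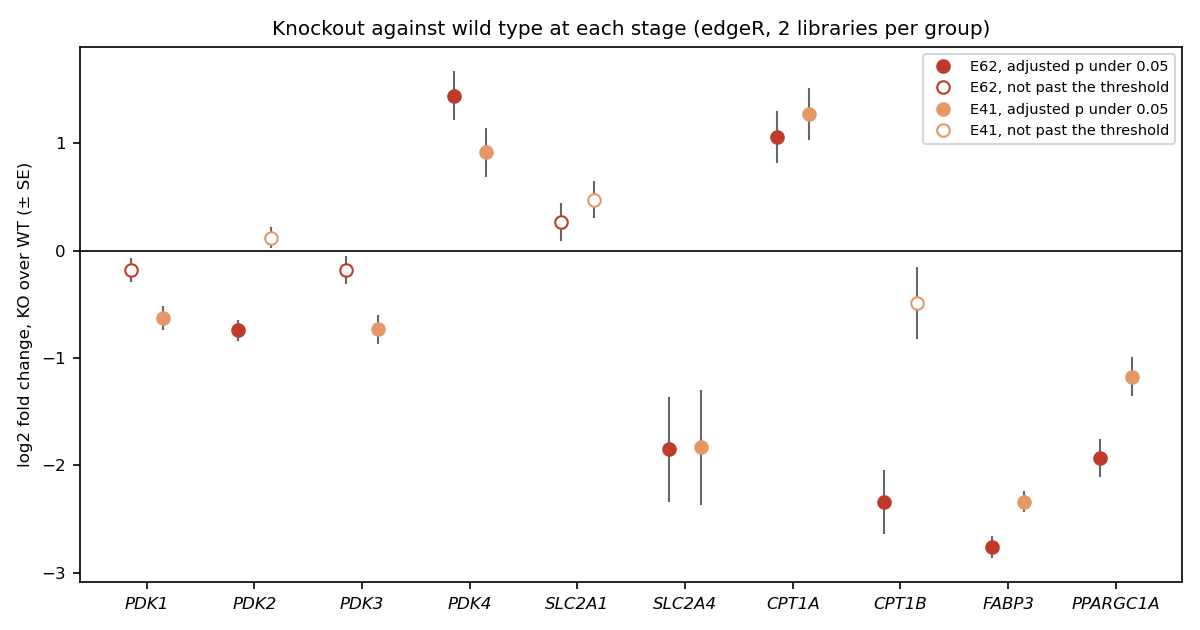
Log2 fold change of KO over WT (vertical axis) with its standard error for each gene along the horizontal axis, at E62 (dark) and E41 (light); filled points passed an edgeR adjusted p under 0.05. Changes run from -2.76 (FABP3 at E62) to 1.44 (PDK4 at E62).

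Ratios of the counts of paired isoforms within a library need no scaling. For each CPT1A count there were 0.244 and 0.230 CPT1B counts in KO E62 against 2.30 and 2.62 in WT E62, and 0.0412 and 0.0542 in KO E41 against 0.148 and 0.176 in WT E41. Each KO group lay under its WT group, and both E62 groups lay above both E41 groups of their genotype. On a log2 scale of TMM-scaled values with 0.5 CPM added to each gene, KO minus WT was -3.30 at E62 and -1.69 at E41, and E62 minus E41 was 3.75 in WT and 2.13 in KO. For each SLC2A1 count there were 0.0131 and 0.0186 SLC2A4 counts in KO E62 against 0.0442 and 0.0991 in WT E62, and 0.00113 and 0.00233 in KO E41 against 0.0123 and 0.00549 in WT E41. The same order of the groups held, with KO E62 above WT E41. These ratios are given as a description, with no test, and their absolute size carries the unequal lengths of the transcripts.

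**Figure D4:**
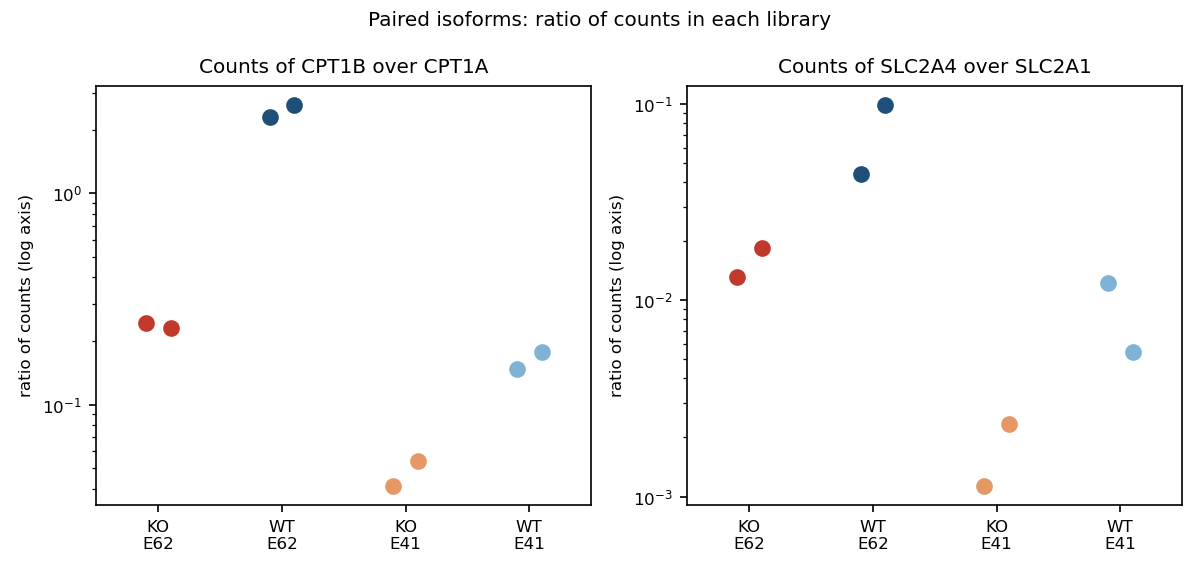
Ratio of counts of CPT1B over CPT1A (left) and SLC2A4 over SLC2A1 (right) in each library, on log axes, by group along the horizontal axes. The CPT1B over CPT1A ratio is 2.30 to 2.62 in WT E62 and 0.0412 to 0.244 in the KO libraries.

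Whether the effect of the knockout differed between the stages was tested directly. Of the 10 genes, 2 passed, PDK2 and CPT1B, both with a more negative effect at E62, while 26.8% of all genes tested were called in this comparison, 11.2% with a more positive and 15.5% with a more negative effect at E62. The difference of the log2 fold changes, E62 minus E41, was -0.86 ± 0.14 for PDK2 (edgeR adjusted p = 0.00462) and -1.85 ± 0.44 for CPT1B (edgeR adjusted p = 0.022). The CPT1B call was lost without KO E41 replicate 1 (edgeR adjusted p = 0.053), KO E41 replicate 2 (0.077), WT E41 replicate 1 (0.069), WT E41 replicate 2 (0.081) or KO E62 replicate 2 (0.057), and with limma-voom (0.2). FABP3 (-0.43 ± 0.14, edgeR adjusted p = 0.0516), PPARGC1A (-0.76 ± 0.25, 0.0574), PDK3 (0.55 ± 0.19, 0.065) and PDK1 (0.45 ± 0.16, 0.0727) narrowly missed the threshold and were not called. FABP3 passed without KO E62 replicate 2 (edgeR adjusted p = 0.041), with TMM from genes outside the muscle list (0.044) and with the filter of 1 CPM (0.049). PDK1 passed without KO E62 replicate 2 (edgeR adjusted p = 0.03) and with DESeq2 (0.037), and PDK3 without WT E62 replicate 2 (edgeR adjusted p = 0.04). For PDK4, CPT1A, SLC2A1 and SLC2A4 the adjusted p ran from 0.257 to 0.997.

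In WT, 6 of the 10 genes differed between E62 and E41, 4 higher and 2 lower at E62, where 39.8% of all genes tested were called (19.8% higher and 20.0% lower). CPT1B rose most, to the 36.8 and 71.5 CPM given above for WT E62 against 3.72 and 3.45 CPM in WT E41, a log2 fold change of 3.92 ± 0.33 (edgeR adjusted p = 0.000449). That fold change exceeded 98.8% of those of all genes tested in this comparison. PPARGC1A rose by 2.16 ± 0.18 (edgeR adjusted p = 0.000285), PDK2 by 0.47 ± 0.10 (0.00804) and FABP3 by 0.43 ± 0.09 (0.00928). SLC2A1 fell by 1.68 ± 0.18 (edgeR adjusted p = 0.000728) and PDK1 fell by 1.02 ± 0.11 (0.000728). SLC2A4, at 1.36 ± 0.50, did not pass the threshold (edgeR adjusted p = 0.0631). PDK3, PDK4 and CPT1A had changes of 0.08, 0.14 and -0.05. All 6 calls held in the 17 alternatives run. Tissue make-up differed between the WT stages as well. The 8 skin markers summed to 32.6 and 36.9 CPM in WT E62 against 782 and 1285 CPM in WT E41. The 10 cartilage markers summed to 103 and 76.8 CPM in WT E62 against 1084 and 286 CPM in WT E41. Of the 55 muscle markers, 40 were called higher and 1 lower at E62 in WT. The part of these tissues in the WT stage changes was not tested.

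In KO, 6 of the 10 genes differed between E62 and E41, 3 higher and 3 lower at E62, where 30.1% of all genes tested were called (12.1% higher and 18.0% lower). SLC2A1 fell by 1.89 ± 0.18 (edgeR adjusted p = 0.00102), to 47.2 and 46.7 CPM in KO E62 against 190 and 158 CPM in KO E41. CPT1B rose by 2.06 ± 0.31 (edgeR adjusted p = 0.00463) and PPARGC1A by 1.40 ± 0.18 (0.00206). PDK1 fell by 0.57 ± 0.11 (edgeR adjusted p = 0.00957), PDK2 fell by 0.39 ± 0.10 (0.0207) and PDK3 rose by 0.63 ± 0.13 (0.0116). These kinases were the less stable calls. Without KO E41 replicate 2 the adjusted p was 0.063 for PDK1, 0.084 for PDK2 and 0.071 for PDK3, and 3 of the 10 genes were called. PDK2 also missed the threshold without KO E41 replicate 1 (0.11) and KO E62 replicate 1 (0.083), and PDK3 without KO E41 replicate 1 (0.072), which left 4 of the 10 called. PDK4, at 0.67 ± 0.22 (edgeR adjusted p = 0.0549), passed in 10 of 17 alternatives, with adjusted p from 0.015 to 0.045 in those, and had 0.41 (edgeR adjusted p = 0.26) without KO E62 replicate 2. FABP3 stood at 0.01 ± 0.10 (edgeR adjusted p = 0.961). The WT and KO stage comparisons share no library, and PDK2 was the 1 gene called in opposite directions in them. In KO the skin markers summed to 1163 and 52.7 CPM at E62 against 1629 and 929 CPM at E41. Cartilage markers summed to 124 and 54.4 CPM in KO E62 against 388 and 4623 CPM in KO E41. The part of these tissues in the KO stage changes was not tested.

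The steps around these members were followed in lists of related genes chosen with earlier results of these data known. The lists are to be read against the all-gene medians of 0.06 at E62 and 0.09 at E41 and the called shares given above. For genes of these lists, rose and fell mean higher and lower in KO than in WT of the same stage. Of 15 beta oxidation genes, 0 were higher and 12 lower in KO at E62, with a median log2 fold change of -0.80, and 0 were higher and 12 lower at E41, with a median of -0.59. ACADL, the long-chain acyl-CoA dehydrogenase, changed by -1.66 ± 0.09 at E62 and -1.58 ± 0.09 at E41, and HADHA and HADHB, the subunits of the trifunctional protein, by -0.87 ± 0.08 and -0.85 ± 0.08 at E62. These enzymes act after CPT1, whose CPT1A form was higher in KO at both stages and whose CPT1B form was lower in KO at E62. ACADVL, which takes very long chains, changed by -0.96 ± 0.10 at E62, and the isomerase ECI2 by -1.06 ± 0.13 at E41.

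Of 12 pyruvate entry genes, 1 was higher and 7 lower in KO at E62 (median -0.72), and 1 was higher and 7 lower at E41 (median -0.58). The subunits of the pyruvate dehydrogenase complex that the PDK kinases act on or with were lower: PDHA1 by -0.94 ± 0.08, PDHB by -1.0 ± 0.09, PDHX by -1.0 ± 0.10 and DLAT by -0.83 ± 0.11 at E62. At E41 PDHA1 changed by -0.61 ± 0.08, PDHB by -0.77 ± 0.09, DLAT by -0.75 ± 0.11 and the pyruvate carrier MPC2 by -1.12 ± 0.10. Against them, pyruvate carboxylase PC was higher in KO at E62 (0.47 ± 0.15) and PDPR, which regulates the phosphatase of the complex, at E41 (0.53 ± 0.11). Adjusted p of the genes named in these paragraphs on related genes were all under 0.05 in edgeR, except where a larger value is printed.

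Of 16 genes of fatty acid uptake and the carnitine shuttle, 5 were higher and 7 lower in KO at E62 (median -0.07), and 3 were higher and 4 lower at E41 (median -0.10). At E62 the acyl-CoA synthetase ACSL5 (2.20 ± 0.20), the binding proteins FABP4 (1.73 ± 0.26) and FABP5 (1.41 ± 0.18), CPT1C (1.67 ± 0.27) and CPT2 (0.54 ± 0.11) rose. The lipase LPL, which frees fatty acids from lipoproteins, fell (-2.17 ± 0.29), as did ACSL1 (-1.19 ± 0.15). FABP4 thus moved opposite to FABP3, with 62.7 and 106 CPM in KO E62 against 21.6 and 29.3 CPM in WT E62. FABP4 and LPL are also adipocyte markers. At E41 ACSL4 (-1.24 ± 0.14), ACSL1 (-0.97 ± 0.15), ACSL3 (-0.73 ± 0.12) and ACACA (-0.69 ± 0.08), which makes the CPT1 inhibitor malonyl-CoA, fell. SLC27A4 (0.45 ± 0.11), CPT2 (0.36 ± 0.12) and CPT1C (0.79 ± 0.27) rose there.

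Of 13 genes of glucose uptake and phosphorylation, 2 were higher and 2 lower in KO at E62 (median 0.29), and 3 were higher and 2 lower at E41 (median 0.36). TBC1D4, which holds GLUT4 inside the cell until insulin acts, fell at E62 (-0.91 ± 0.09) and at E41 (-0.67 ± 0.09). RAB10, which moves GLUT4 vesicles, fell at E62 (-0.66 ± 0.10), and hexokinase HK1 at E41 (-0.65 ± 0.11). ARRDC4 rose at E62 (1.16 ± 0.15) and at E41 (0.91 ± 0.15), SLC2A6 at E62 (2.60 ± 0.50) and at E41 (1.40 ± 0.46), and TXNIP, which curbs glucose uptake, at E41 (0.83 ± 0.13). Of 14 targets of the hypoxia factor HIF1, 3 were higher and 5 lower at E62 (median -0.06), and 0 were higher and 5 lower at E41 (median -0.52). The glycolytic genes ALDOA (-2.80 ± 0.15) and PGK1 (-1.02 ± 0.10), the prolyl hydroxylase EGLN3 (-2.29 ± 0.28) and PFKFB4 (-1.18 ± 0.19) fell at E62, where ADM (1.83 ± 0.39), NDRG1 (1.31 ± 0.30) and VEGFA (1.01 ± 0.25) rose. At E41, where PDK1 was lower too, ALDOA (-1.26 ± 0.14), PGK1 (-1.14 ± 0.10), EGLN3 (-1.98 ± 0.28) and LDHA (-1.50 ± 0.25) fell. The other 9 of the 14 targets that missed the threshold at E41 were not called in either direction. HIF1A itself stood at -0.03 ± 0.11 at E41 (edgeR adjusted p = 0.876). The part of HIF1 in the PDK1 values was not tested.

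Of 19 regulators of fuel genes, 2 were higher and 9 lower in KO at E62 (median -0.35), and 4 were higher and 3 lower at E41 (median 0.08). PRKAA2, the catalytic subunit of AMP kinase that prevails in muscle, had 1.56 and 1.10 CPM in KO E62 against 20.5 and 21.6 CPM in WT E62, a log2 fold change of -3.98 ± 0.22. The nuclear receptors ESRRG (-5.64 ± 0.45) and ESRRA (-1.29 ± 0.13), partners of PPARGC1A, fell at E62 as well. PPARG, the nuclear receptor of fat cells, went the other way, with 32.4 and 48.2 CPM in KO E62 against 2.95 and 4.86 CPM in WT E62 (3.37 ± 0.32), and FOXO1, a known activator of PDK4, rose by 0.90 ± 0.22. FOXO1 had 40.6 and 64.1 CPM in KO E62 against 31.85 and 24.15 CPM in WT E62. At E41, where PDK4 was higher too, FOXO1 stood at 0.01 (edgeR adjusted p = 0.977). The part of FOXO1 in the PDK4 values was not tested. At E41 RXRA (1.14 ± 0.12) and PPARD (0.80 ± 0.16) rose while PRKAA2 (-1.61 ± 0.21), ESRRB (-4.78 ± 0.70) and ESRRG (-1.67 ± 0.38) fell. In the test of the difference between stages, 1 of the 19 was called with a more positive effect at E62 and 9 with a more negative one.

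**Figure D5:**
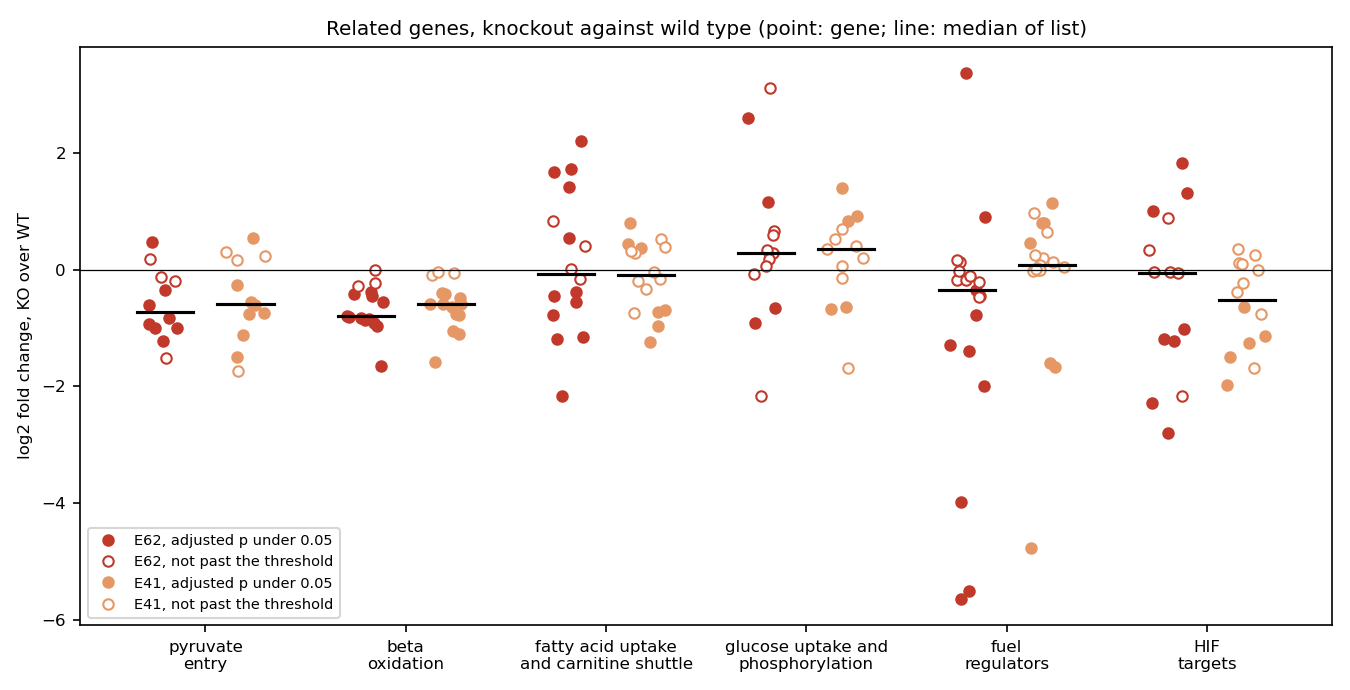
Log2 fold change of KO over WT (vertical axis) of each tested gene in 6 lists along the horizontal axis, at E62 (dark, left) and E41 (light, right); filled points passed an edgeR adjusted p under 0.05 and lines are list medians. The beta oxidation medians lie at -0.80 and -0.59, and the carnitine shuttle medians near 0.

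Genes whose pattern over the 8 libraries lay closest to a member were found by Pearson's r of log2 CPM among 11901 genes, as a description without a test, over libraries that share 4 groups. For FABP3 these were TNNC2, CACNA1S and PGAM2 (r from 0.9985 to 0.9992), genes of fast troponin, the muscle calcium channel and muscle glycolysis. For PDK1 they were ERCC8, UTP18 and HK1 (0.986 to 0.991), and for CPT1B they were GADD45G, HSPB6 and EEA1 (0.990 to 0.992). PPARGC1A was closest to PRKAG2, TANGO2 and MAPKAPK3 (0.987 to 0.988). PDK4 was closest to SLC24A4, MFSD8 and UNC13C (0.990 to 0.993), CPT1A to ALG11, LAPTM4A and CLMN (0.977 to 0.989), and SLC2A1 to SMARCD1, ASIC2 and INSYN2B (0.989 to 0.992). Among the members themselves CPT1B and PPARGC1A had r = 0.956, CPT1A and FABP3 -0.93, and CPT1B and SLC2A1 -0.908.

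In the RefSeq annotation of Sscrofa11.1, matched by symbol, 3 members overlap a named gene. The labels do not say whether counting used strand, so reads of overlapping genes cannot be assigned with certainty. PDK4 overlaps ASB4, which moved in the opposite direction, with 25 and 11 counts in KO E62 against 1596 and 1192 in WT E62, and 7 and 10 in KO E41 against 159 and 227 in WT E41. PDK2 overlaps SAMD14, which was higher in KO (0.71 ± 0.20 at E62 and 1.45 ± 0.21 at E41). SLC2A1 overlaps ZNF691 (-0.29 ± 0.11 at E62, edgeR adjusted p = 0.0605, and 0.38 ± 0.11 at E41, 0.0294). CPT1B lies 375 bases from CHKB, which had log2 fold changes of -0.11 ± 0.14 at E62 (edgeR adjusted p = 0.529) and -0.27 ± 0.14 at E41 (0.158). ZCCHC17, 145 bases from FABP3, stood at 0.01 at E62 (edgeR adjusted p = 0.939). At E41 it was lower in KO (-1.08 ± 0.10, edgeR adjusted p = 0.000191), as FABP3 was. Near SLC2A4, YBX2 at 417 bases was higher in KO at E62 (1.18 ± 0.27, edgeR adjusted p = 0.0083) and stood at 0.69 ± 0.25 at E41 (0.0635). CLDN7, at 369 bases, had -0.73 ± 0.55 at E62 (edgeR adjusted p = 0.306) and -0.39 ± 0.50 at E41 (0.575).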

How the data were processed

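The deposited table holds estimated counts (expected counts) per gene, whole numbers that are not normalized, a column for each library. Tools named in the submitters' processing notes are kallisto and DESeq2, and builds Sscrofa11.1 together with susScr11, none with a role. Per the labels' protocols, TruSeq RNA or stranded mRNA kits were used. Annotation release and strand setting: not given in the sources used here.

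Symbols were found for 15527 of 22516 identifiers. After edgeR's filterByExpr (minimum count 10), 17020 genes were tested, all 10 members among them. Rounded counts with TMM scaling went into 1 fit of edgeR 4.0.16 under R 4.3.3, holding a mean for each group over 8 libraries (4 residual degrees of freedom). Its robust quasi-likelihood F test was two-sided, with Benjamini-Hochberg adjustment over all genes. The standard error is the log2 change over the square root of F. A chi-square test of replicates' counts gave 31.9 to 70.9 per degree of freedom, more than counting noise, so none was treated as a library deposited again. It does not show separate animals. The smallest library held 23402052 counts, and precision was lowest for SLC2A4, with 10 counts at the least.

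The members and lists were chosen with earlier results of these data known. Named genes are the members, the 3 targeted genes, in each list of related genes up to 4 with the smallest p at each stage and those called against the majority, and the 3 genes closest in pattern to each member with a mean of at least 2 CPM; not all are printed. ADIPOQ, PLIN1, PLIN4, CEBPA, GPD1, CSRP3, CHRNG, HIF1A, the levels of FABP4, LPL and FOXO1, and neighbouring genes were chosen after their values were seen. The fit was tested on simulated data. Alternatives were DESeq2 1.42.0, limma-voom (limma 3.58.1), library size alone, relative log expression factors, TMM computed without the muscle list, 2 other low-count filters, a fit on only the groups compared, a block for the replicate number, and leaving out each library in turn. Positions come from RefSeq's Sscrofa11.1 table, matched by symbol; transcript lengths were not used, so levels of different genes are not compared.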

Additional observations from a re-analysis of the deposited data

Results flagged for a closer look

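For 2 of the 10 members the effect of the knockout differed between the stages in a direct test, where 26.8% of all genes tested were called. Neither was called in KO against WT at E41 (edgeR adjusted p = 0.373 for PDK2 and 0.284 for CPT1B). PDK2 had a difference of log2 fold changes, E62 minus E41, of -0.86 ± 0.14 (edgeR adjusted p = 0.00462, from 8.5e-05 to 0.023 over 16 alternatives), with KO under WT in 2 of 2 libraries at E62 and above WT in 2 of 2 at E41. CPT1B had a difference of -1.85 ± 0.44 (edgeR adjusted p = 0.022, from 0.00038 to 0.2 over alternatives), with KO under WT in 2 of 2 libraries at each stage.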

How the results depend on the processing

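In KO against WT, 17 alternatives were run. Those that kept 2 libraries in each group called 7 to 8 of the 10 members at E62 and 6 to 9 at E41. The reported fit called 7 at each stage. Over the same alternatives the share of all genes called ran from 39.2% to 52.5% at E62 and from 32.5% to 46.1% at E41. With 1 library left out, that share was lower than in the reported fit at both stages. The SLC2A4 call was lost in 2 alternatives at E62 and 4 at E41, and that of PDK4 in 2 at E41, while SLC2A1 passed in 1 at E62 and 6 at E41 and PDK2 in 1 at E41. In WT between stages 6 were called in every alternative. With 1 library left out, which leaves a lone library assumed to vary like the other groups, the counts ran from 6 to 7 at E62, 5 to 8 at E41, 1 to 3 for the difference between stages, 6 to 6 in WT and 3 to 7 in KO between stages. For the difference between stages limma-voom called 1 of the 10, against 2; the cause was not tested.

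Differences that missed the threshold in the reported fit changed sign in some alternatives and missed it there too. With library size alone these were PDK1 (0.125) and PDK3 (0.126) in KO against WT at E62. For the difference between stages, SLC2A4 had 0.031 with DESeq2, 0.024 with relative log expression factors, 0.006 with library size alone, 0.072 with the replicate block and -0.459 to 0.432 with 1 library left out, and CPT1A -0.578 to 0.191. Between stages in WT, CPT1A had 0.036 with TMM from genes outside the muscle list, 0.02 with the 1 CPM filter and -0.412 to 0.356 with 1 library left out, and PDK3 -0.014 to 0.297. Between stages in KO, FABP3 had -0.002 with no low-count filter and -0.078 to 0.082 with 1 library left out. No called value changed sign.

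Isoform ratios depended on the pseudocount because SLC2A4 and CPT1B are low. With 2 CPM added, the log2 ratio of CPT1B to CPT1A was -3.11 for KO minus WT at E62, 3.33 for E62 minus E41 in WT and 1.73 for E62 minus E41 in KO. That of SLC2A4 to SLC2A1 was -1.01 for KO minus WT at E62, -0.89 for KO minus WT at E41 and 2.10 for E62 minus E41 in KO, and with 0.1 CPM -2.03 and 3.00 for the last 2 of these. With 1 library left out the CPT1B to CPT1A values ran from -3.40 to -3.21, -1.86 to -1.51, 3.62 to 3.88 and 1.96 to 2.30, and those of SLC2A4 to SLC2A1 from -2.10 to -1.08, -1.91 to -0.98, 2.16 to 3.19 and 2.25 to 2.80, each for KO minus WT at E62, at E41, and E62 minus E41 in WT and in KO.

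The replicate numbers are not stated to pair animals, and deviations of same-numbered libraries correlated by -0.25 to 0.097 between groups. With the replicate block 7 members were called at E62, 7 at E41, 2 for the difference, 6 in WT and 7 in KO between stages, the added call being PDK4 (adjusted p = 0.015). Only the groups compared gave no value for the difference between stages, which needs all 4 groups.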
